A study of Mus musculus with 75 samples.

Results

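ABTAA is an antibody that binds angiopoietin-2 (ANGPT2) and clusters it, which turns this ligand into an activator of the endothelial receptor TIE2. The comparison described here set the obstructed kidneys of ABTAA-treated mice against the unobstructed kidneys of ABTAA-treated mice, and it held 14 of the 75 whole-kidney RNA libraries of the series, chosen by their labels alone. One group was the 7 kidneys above a ligated ureter, 3 days after unilateral ureter obstruction (UUO), and the other was 7 contralateral (CL) kidneys. All 14 came from adult C57BL6/J mice or wild-type animals of the study's own breeding, of both sexes, which had ABTAA intraperitoneally and carprofen around surgery, so that every ABTAA kidney, CL included, had seen the antibody. The closest comparison was the same contrast in 16 kidneys of mice given human IgG Fc (8 CL and 8 UUO). The labels do not tie a CL kidney to a UUO kidney of the same mouse, no sham-operated kidney belongs to either arm, and a CL kidney takes over filtration from its obstructed partner, so it is not an untouched kidney. The question was what obstruction did to the kidney transcriptome while TIE2 was being activated.

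Obstruction stops urine flow and raises the pressure in the tubules, whose epithelial cells then lose their transport program and take on an injured state, while perivascular mesenchymal cells become matrix-producing myofibroblasts and capillaries are lost. ANGPT1 from mesenchymal cells keeps TIE2 active and vessels quiescent, ANGPT2 from activated endothelium mostly opposes this, and the phosphatase VEPTP (gene Ptprb) removes the phosphate from TIE2 (gene Tek). PDGFB is the ligand that recruits and activates mesenchymal cells through PDGFRB. Most of the RNA of a whole kidney comes from tubules, so the endothelium is a small part of what these libraries measure.

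Promoters of Cxcl1 and Cxcl10 are printed here because these chemokine genes were among the largest rises and carry matches to motifs of regulators of inflammation. Genes and motifs were chosen after the values were seen. Each run is the 250 bases before the RefSeq start on the gene's own strand in GRCm38.p6, and capitals mark matches. The positions are chr5:90890995-90891244 (plus strand) for Cxcl1 and chr5:92348890-92349139 (minus) for Cxcl10.
Cxcl1: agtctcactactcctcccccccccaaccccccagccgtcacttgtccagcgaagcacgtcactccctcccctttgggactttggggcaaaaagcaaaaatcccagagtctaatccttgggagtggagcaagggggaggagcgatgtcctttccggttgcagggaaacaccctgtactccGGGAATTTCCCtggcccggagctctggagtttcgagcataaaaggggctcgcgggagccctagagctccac
Cxcl10: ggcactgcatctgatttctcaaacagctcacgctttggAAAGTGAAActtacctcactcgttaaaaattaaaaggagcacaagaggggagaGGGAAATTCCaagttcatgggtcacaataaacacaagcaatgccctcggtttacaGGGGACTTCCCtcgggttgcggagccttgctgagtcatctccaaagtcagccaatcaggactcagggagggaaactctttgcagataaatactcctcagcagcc
Both motifs were searched on both strands. The kappa B consensus, bound by NF-kappa B, is held by 7.25% of the 32851 promoters of the same length in the RefSeq table. These promoters belong to 27025 genes. A gene counted as a match if any of its promoters matched, so counts of genes and this share of promoters are unlike measures. The consensus was found in 3 of the 9 largest rises that have a promoter there (Cxcl1, Cxcl10, Aoc1) and in 1 of the 9 such falls (6330410L21Rik). Its matches at 71 to 62 and 70 to 61 bases before the start of Cxcl1 overlap on opposite strands, and those of Cxcl10 lie at 159 to 150, 104 to 95, and 103 to 94 bases before the start. The core of the interferon-stimulated response element, AAANNGAAA, is held by 9.37% of promoters, among them those of Krt20 and Cxcl10, which rose, and of Egf and the non-coding D630029K05Rik, which fell. These matches describe letters in a window and were not tested as binding sites.

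Whole-kidney identity was clear in every library. Umod, the uromodulin gene of the thick ascending limb, had a median of 4536 CPM (2659.8 to 6683) in CL and a median of 2983 CPM (1859.6 to 3547) in UUO kidneys. Such values are counts scaled to library size (CPM, with TMM factors), and the lowest and highest kidneys stand in parentheses. Adrenal steroid enzymes were at or near 0, with Cyp11a1, Cyp11b1, Cyp11b2, and Cyp21a1 without a count in any of the 14 libraries. Totals ran from 359468 to 1191265 counts per library, with 14437 to 16743 genes detected. Library names came in 2 forms, which the labels do not explain: letter and number split by a low line (6 split-name libraries) or unsplit (8 plain libraries). Gm42418 and AY036118, genes known to overlap ribosomal RNA sequence, took 7.32% to 14.4% of counts in plain and 3.89% to 5.91% in split-name libraries, and 26.0% of genes differed between the forms. At least 10 counts of both Xist and Y-linked genes, which a single mouse does not normally give, were held by 5 of the 8 plain libraries (CL replicates 1, 3, and 4 and UUO replicates 3 and 4), and a call that was lost without them is named as such. The first principal component (35% of variance) put all UUO kidneys above 0 and all CL kidneys below 0, and the second (20.4%) separated the forms. Both forms hold both kidneys, so form was a term in every main fit, and some alternatives left it out.

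**Figure D1:**
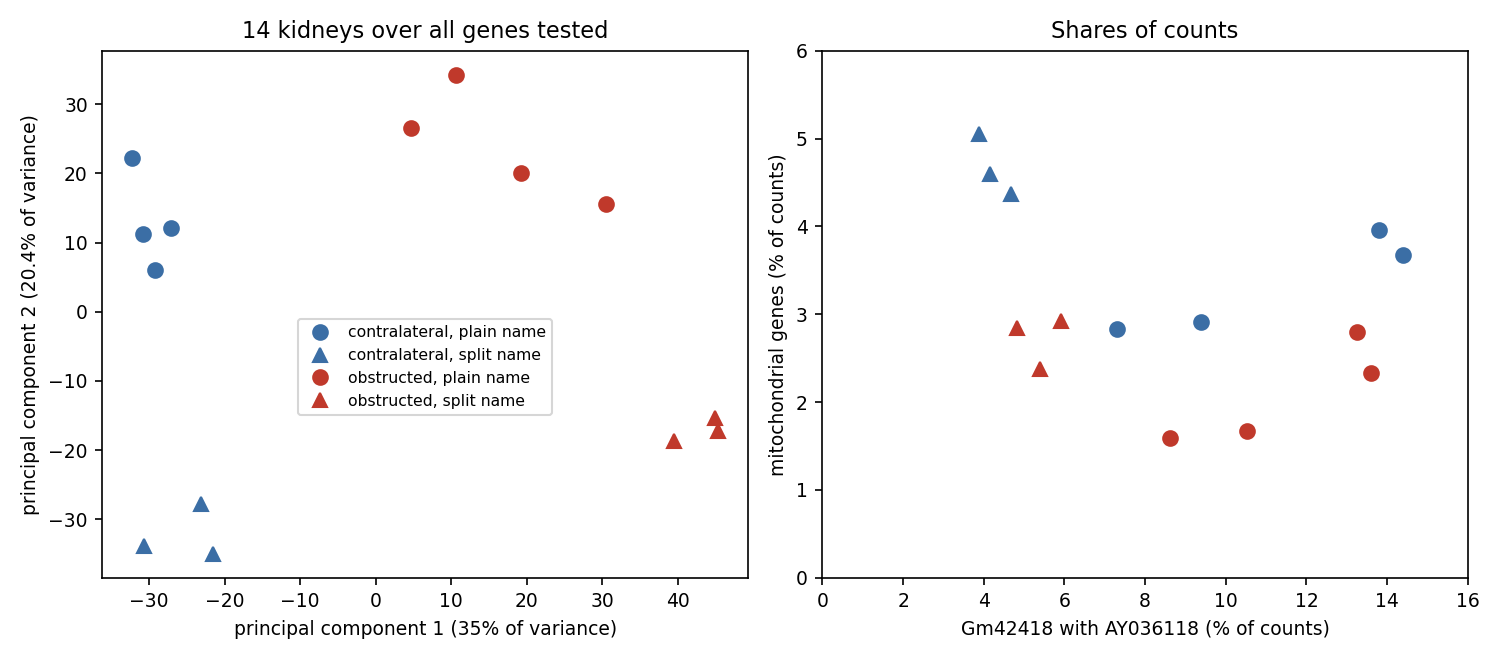
Left, the 14 kidneys on the first 2 principal components (arbitrary units) of log2 CPM over all genes tested, by kidney (colour) and form of library name (shape). Right, the percent of counts on mitochondrial genes against the percent on Gm42418 with AY036118. CL kidneys lie left of 0 and UUO kidneys right of it, and the split-name libraries have the lower Gm42418 share.

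Obstruction changed 2643 of the 8667 genes tested (30.5%) at an adjusted p under 0.05 (edgeR), with 1216 higher (14.0%) and 1427 lower (16.5%) in UUO kidneys. Large rises outnumbered large falls. On the log2 scale 399 genes rose by 1 or more and 94 by 2 or more, while 276 fell by 1 or more and 16 by 2 or more. The median log2 fold change of all genes tested was 0.0035. A gene could pass the filter on low counts through 1 group alone, which favours rises in lists of genes low in CL kidneys. A change given beside a gene is its log2 fold change ± SE with 7 kidneys a group, negative where UUO kidneys were lower. Values of all UUO kidneys lay above all CL kidneys for 313 genes (3.61%) and below them for 258 (2.98%), which makes 571 genes with separate groups (6.59%). In whole tissue, fewer cells of a type and less RNA per cell cannot be told apart, and this holds for each result that follows.

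Havcr1, Il1f6, Krt20, and Lcn2 were among the 12 largest rises. Havcr1, which encodes KIM-1, a phagocytic receptor that injured tubule cells display, went from a median of 11.9 CPM (5.61 to 16.8) in CL kidneys to a median of 869.5 CPM (476 to 1964) in UUO kidneys. This was 88.0 times higher in the fit, a change of 6.46 ± 0.28 (adjusted p = 1.18e-13), and the 3 highest UUO values were those of the split-name libraries. Il1f6, which encodes the epithelial cytokine IL-36 alpha, had no count in any CL kidney, whereas UUO kidneys held a median of 45.5 CPM (20.0 to 60.4). Its 216 UUO counts made it at least 88.1-fold higher against a floor of 3 counts over the CL group (adjusted p = 7.01e-09). Krt20, a keratin of injured tubules, rose from a median of 1.55 CPM (0 to 2.10) to a median of 36.0 CPM (25.3 to 92.1), a change of 5.17 ± 0.36. Lcn2, whose product NGAL is a urinary marker of tubule injury, rose from a median of 12.6 CPM (2.68 to 17.8) to a median of 262 CPM (156 to 339), a change of 4.76 ± 0.21 (adjusted p = 1.18e-13). For these 4 genes the lowest UUO kidney lay well above the highest CL kidney.

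Secreted and adhesion proteins made up most of the other large rises. Vcam1, an adhesion molecule of activated endothelium and of maladaptive tubule cells, rose from a median of 9.59 CPM (7.02 to 17.1) to a median of 270.0 CPM (183 to 791), a change of 4.99 ± 0.23 (adjusted p = 1.96e-13). UUO replicate 6 held the highest value, and without it the UUO maximum was 444.7 CPM. C3, the central complement component, rose from a median of 46.1 CPM (28.1 to 176) to a median of 1042 CPM (818 to 2248), a change of 4.43 ± 0.28, and CL replicate 5 was the only CL kidney above 100 CPM. Timp1, an inhibitor of matrix metalloproteinases, went from a median of 0 CPM (0 to 4.19) to a median of 59.9 CPM (40.0 to 80.0), a change of 5.52 ± 0.43. The neutrophil chemokine gene Cxcl1 rose by 4.70 ± 0.37 and the interferon-induced chemokine gene Cxcl10 by 4.23 ± 0.33 on the log2 scale, from medians of 1.55 and 3.10 CPM to 42.0 and 81.2 CPM. Aoc1, a diamine oxidase (4.18 ± 0.23), Serpina10, a plasma protease inhibitor (4.66 ± 0.23), and Fgb, the fibrinogen beta chain (4.04 ± 0.37), completed the 12. Timp1, Krt20, and Cxcl1 had at most 3 counts in any CL library, so their fold changes depend on few counts. In all 12 genes the UUO and CL kidneys were apart, which the rule for naming them required. Timp1, Vcam1, and Cxcl10 overlap a gene on the opposite strand (Syn1, Gm43109, and Art3), and whether the counting used strand is not given in the sources used here.

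Genes of distal and proximal tubules were among the 12 largest falls. Egf, made by the thick ascending limb and distal convoluted tubule, fell from a median of 1581 CPM (1097 to 2002) in CL to a median of 151 CPM (31.2 to 1015) in UUO kidneys, a change of -2.50 ± 0.50 (adjusted p = 4.81e-04). UUO replicates 1 and 2 held 869.7 and 1015 CPM, just under the lowest CL kidney, and the other 5 lay between 31.2 and 292.6 CPM. Gm42697 (-3.09 ± 0.38) and 6330410L21Rik (-2.73 ± 0.38) are antisense genes inside or across Egf (chr3:129677565-129755316, minus strand, GENCODE vM21), so their reads and those of Egf cannot be told apart unless the counting used strand. Slc16a7, a monocarboxylate transporter, fell from a median of 274 CPM (208 to 530.1) to a median of 59.0 CPM (22.0 to 138), a change of -2.25 ± 0.32. Slc12a1, the loop-diuretic-sensitive NKCC2 cotransporter of the thick ascending limb, fell from a median of 1151 CPM (943 to 1962) to a median of 376 CPM (147 to 726), a change of -1.80 ± 0.28. G6pc, the last enzyme of glucose release in the proximal tubule, fell from a median of 240.2 CPM (211 to 459) to a median of 87.2 CPM (47.6 to 132), a change of -1.75 ± 0.22. The remaining members were Cyp2d12, a cytochrome P450 (-2.67 ± 0.36), Tmem207 (-2.23 ± 0.37), Egfl6 (-1.88 ± 0.28), BC024386 (-1.84 ± 0.22), Abca13 (-1.84 ± 0.27), and D630029K05Rik (-1.74 ± 0.21).

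**Figure D2:**
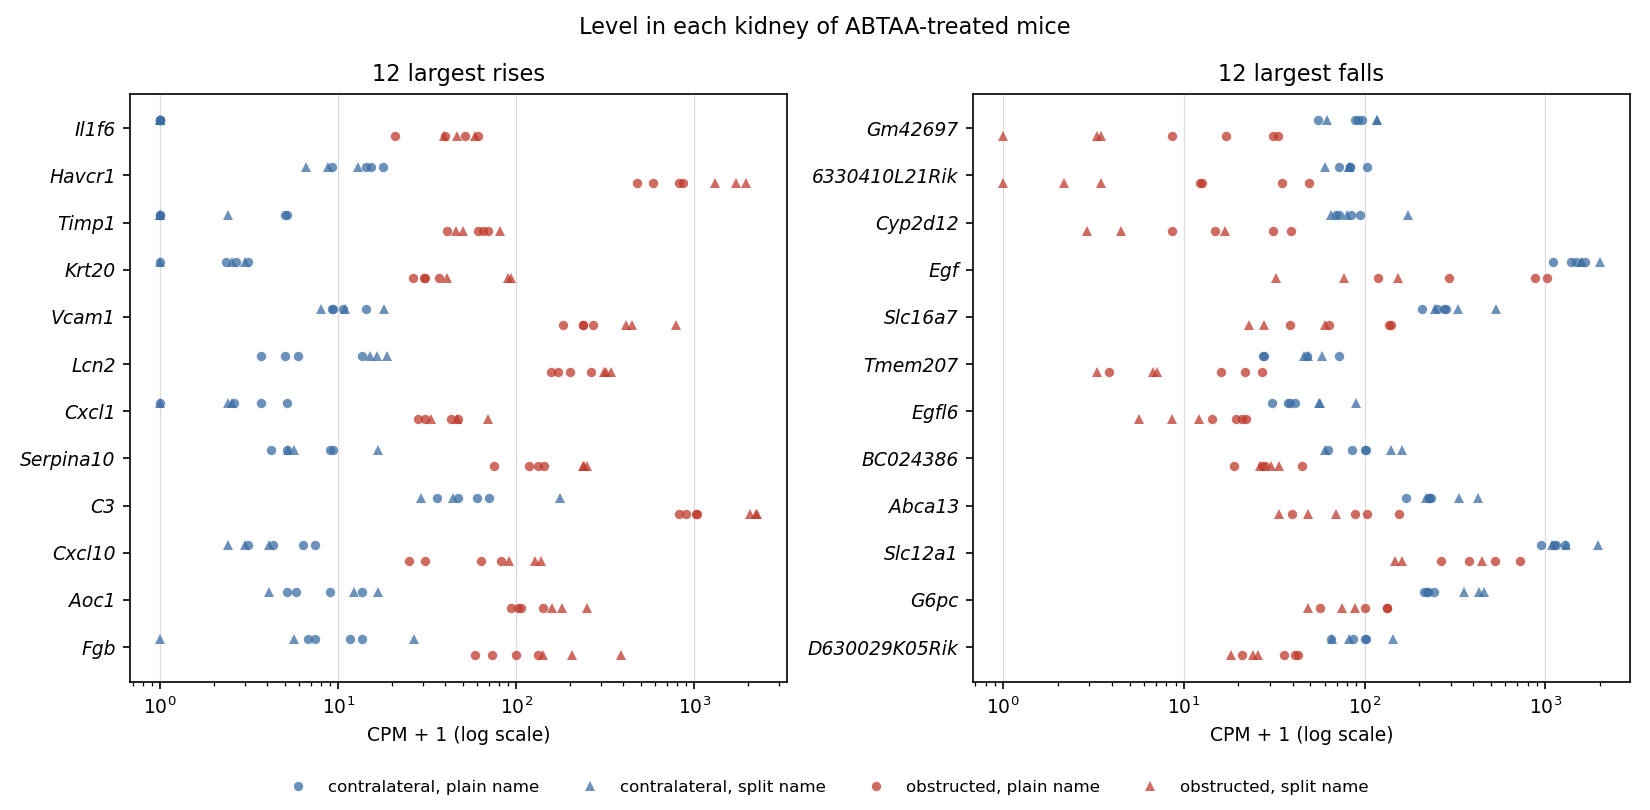
CPM plus 1 (log axis) in each of the 14 kidneys for the 12 largest rises (left) and the 12 largest falls (right); colour gives the kidney and shape the form of library name. Havcr1 runs from 5.61 to 16.8 CPM in CL and from 476 to 1964 CPM in UUO kidneys, while UUO values of Egf spread from 31.2 to 1015 CPM.

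The study's tubular injury panel rose as a whole. All 8 genes were higher in UUO kidneys, with a median log2 fold change of 1.59 against 0.0035 over all genes, and in 6 of them the kidneys did not overlap. Clu, the chaperone clusterin, rose from a median of 268 CPM (234 to 358) to a median of 1896 CPM (1563 to 2029.7), a change of 2.73 ± 0.14 (adjusted p = 2.74e-12). Pdgfb rose from a median of 11.2 CPM (5.93 to 12.8) to a median of 43.0 CPM (34.6 to 65.9), a change of 2.16 ± 0.21 (adjusted p = 5.35e-08), with no overlap. Krt8, an epithelial keratin (0.94 ± 0.13), and Rela, the p65 subunit of NF-kappa B (1.02 ± 0.15), rose less and also without overlap. Piezo1, a stretch-gated cation channel (0.77 ± 0.15), and Ets2, a transcription factor (0.65 ± 0.21, adjusted p = 0.0213), rose with overlapping values. The call of Ets2 was lost in the plain libraries alone, in the split-name libraries alone (not with the replicate block, which pairs them by number, adjusted p = 0.0341), without CL replicate 6, UUO replicate 3, or UUO replicate 6, and without the libraries holding both Xist and Y-linked counts. The study showed this panel, and the matrix and endothelial panels, with data of this series, so none is taken as independent evidence of its own direction.

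Tubular dedifferentiation genes, which mark epithelial cells that have left the mature state, rose in nearly all cases. Of 24 listed genes 21 were tested and 19 rose, with a median log2 fold change of 1.93. Spp1, which encodes osteopontin, was the most abundant of them, with a median of 3083 CPM (1579.7 to 4599) in CL and a median of 18342 CPM (14274 to 22003) in UUO kidneys, a change of 2.64 ± 0.28. Tnfrsf12a, the receptor of the cytokine TWEAK, rose from a median of 29.0 CPM (17.8 to 37.2) to a median of 197 CPM (122 to 301), a change of 2.85 ± 0.19. Cd44, a hyaluronan receptor (3.61 ± 0.38), Krt19 (2.97 ± 0.40), Krt18 (1.92 ± 0.17), Vim, the intermediate filament vimentin (1.93 ± 0.19), and Sox4 (1.85 ± 0.21) rose as well. Cdkn1a, the cell cycle inhibitor p21, rose from a median of 11.9 CPM (4.65 to 19.2) to a median of 39.2 CPM (32.4 to 76.5), a change of 1.98 ± 0.23. Krt7 (0.14 ± 0.14, adjusted p = 0.508) and the renal developmental factor Pax8 (0.35 ± 0.17, adjusted p = 0.124) did not pass. Sox9, Pax2, and Plaur had too few counts to be tested.

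Fibrosis genes rose with almost no exception. Of the study's panel of 14 extracellular matrix genes 13 were tested and all 13 rose, with a median log2 fold change of 2.02 and no overlap in 10; Mmp2, with 77 counts over the 14 libraries, was not tested. Col1a1, an alpha chain of type I collagen, rose from a median of 7.91 CPM (3.20 to 25.2) in CL to a median of 126 CPM (85.3 to 168) in UUO kidneys, a change of 3.72 ± 0.25 (adjusted p = 1.63e-10), although CL replicate 4, at 25.2 CPM, stood above the other CL kidneys. Col3a1, the chain of type III collagen, rose from a median of 40.1 CPM (23.9 to 65.2) to a median of 470.0 CPM (269.9 to 663), a change of 3.51 ± 0.20. Fn1, fibronectin (2.79 ± 0.19), Col1a2 (2.86 ± 0.18), Tnc, the injury-induced glycoprotein tenascin C (2.65 ± 0.25), and the protease gene Adamts1 (2.32 ± 0.16) followed. The contractile myofibroblast genes Tagln (1.77 ± 0.16) and Acta2, which encodes alpha smooth muscle actin (1.26 ± 0.15), rose less. Acta2 had a median of 52.4 CPM (24.1 to 75.2) in CL and a median of 117 CPM (83.0 to 189) in UUO kidneys. Decorin (Dcn, 1.32 ± 0.24), Timp2 (1.07 ± 0.22), and calponin 2 (Cnn2, 1.17 ± 0.27) rose with overlapping kidneys, and the call of Cnn2 was lost in the plain libraries alone.

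Of another 34 matrix and myofibroblast genes 25 were tested, of which 24 rose and 1 fell, with a median of 1.68. Fbn1, fibrillin 1, rose from a median of 7.91 CPM (4.21 to 14.0) to a median of 61.4 CPM (40.0 to 70.5), a change of 2.69 ± 0.22, and Sparc, a collagen-binding protein, from a median of 99.0 CPM (94.9 to 167) to a median of 499.6 CPM (388 to 589), a change of 2.10 ± 0.15. Collagens VI (2.71 ± 0.24 for Col6a3), VIII (3.03 ± 0.28 for Col8a1), and XII (1.94 ± 0.23 for Col12a1) rose, as did the crosslinking enzyme gene Loxl2 (2.39 ± 0.30). Timp3, a metalloproteinase inhibitor bound to matrix, fell by 0.47 ± 0.14. In PDGF signaling the ligands Pdgfb and Pdgfa (1.43 ± 0.22) and the receptors Pdgfrb (2.02 ± 0.21) and Pdgfra (1.68 ± 0.20) rose, each without overlap. Pdgfrb, the receptor on pericytes and fibroblasts, had a median of 10.8 CPM (8.03 to 23.1) in CL and a median of 50.4 CPM (43.9 to 68.9) in UUO kidneys. The ligands Pdgfc (-0.42 ± 0.23, adjusted p = 0.183) and Pdgfd (0.01 ± 0.22, adjusted p = 0.985) did not pass. In the TGF-beta and BMP list 4 of 14 tested genes rose and 1 fell, near the 30.5% of all genes called, with a median of 0.35. The receptor gene Tgfbr2 rose from a median of 53.0 CPM (35.1 to 65.2) to a median of 109 CPM (88.0 to 129), a change of 1.06 ± 0.15, and Bmp7, an epithelial BMP, fell from a median of 41.6 CPM (30.9 to 55.9) to a median of 22.0 CPM (11.3 to 32.4), a change of -1.01 ± 0.21. Tgfb1, Tgfb2, and Tgfb3 were too low to be tested.

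In the study's panel of 10 endothelial genes 1 rose, 1 fell, and 8 did not pass, beside 30.5% of all genes called, with a median log2 fold change of 0.17 and no gene with separate groups. Tek, the TIE2 receptor itself, had a median of 27.3 CPM (17.4 to 48.1) in CL and a median of 36.9 CPM (19.8 to 53.3) in UUO kidneys, a change of 0.22 ± 0.19 (adjusted p = 0.426). Angpt2, the ligand that ABTAA clusters, had a median of 27.3 CPM (12.4 to 65.3) in CL and a median of 14.0 CPM (2.30 to 29.9) in UUO kidneys, which is lower after obstruction, a change of -0.81 ± 0.30 (adjusted p = 0.0402). The groups overlapped, and this call was among the least stable. It was lost without the form term, without TMM, in the exact test, in the plain libraries alone, without the libraries holding both Xist and Y-linked counts, and without any of CL replicates 4, 5, and 6 or UUO replicates 3 to 7. Angpt2 also overlaps Mcph1 on the opposite strand. The study, which measured ANGPT2 protein in kidney lysates by ELISA, reported raised ANGPT2 in UUO kidneys. That is the opposite direction to this whole-kidney RNA value, and the 2 measures are unlike. Cdh5, VE-cadherin of endothelial junctions, had a median of 17.8 CPM (9.82 to 22.4) in CL and a median of 29.9 CPM (16.0 to 36.2) in UUO kidneys, a change of 0.66 ± 0.22 (adjusted p = 0.0248), a call lost in each form alone (in split-name libraries not with the replicate block, adjusted p = 0.0387), with no filter on low counts, without CL replicate 6 or UUO replicate 3, 5, or 7, and without the libraries holding both Xist and Y-linked counts.

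The other 8 endothelial genes gave no call, although Kdr passed with no filter and without CL replicate 6, and Pecam1 after thinning. Tie1, the partner receptor of TIE2, had a log2 fold change of 0.66 ± 0.34 (adjusted p = 0.146), and UUO replicate 2 held no count of it while the next lowest UUO kidney held 16.0 CPM; without that library it passed. Ptprb (-0.20 ± 0.19), Pecam1 (0.25 ± 0.18), Plvap, of the fenestral diaphragm (0.47 ± 0.28), Emcn, endomucin of capillaries and veins (-0.10 ± 0.16), and the VEGF receptor genes Kdr (-0.45 ± 0.24) and Flt1 (0.11 ± 0.14) had adjusted p from 0.163 (Kdr) to 0.672 (Emcn). Summed over the panel, the level ran from 254.2 to 439.1 CPM in CL and from 259.9 to 394.3 CPM in UUO kidneys. In the angiopoietin and TIE2 list of 11 genes, 7 were tested. Svep1, which encodes a matrix ligand of TIE1, rose from a median of 9.36 CPM (1.98 to 15.5) to a median of 35.6 CPM (17.3 to 49.5), a change of 1.84 ± 0.31 (adjusted p = 8.14e-05), without overlap. Esm1, the tip-cell proteoglycan endocan, rose from a median of 11.2 CPM (5.35 to 26.4) to a median of 26.7 CPM (15.0 to 34.6), a change of 0.99 ± 0.25 (adjusted p = 0.00435), but not in the split-name libraries alone nor without the libraries holding both Xist and Y-linked counts. Foxo1, the transcription factor that TIE2 signaling keeps out of the nucleus, had a change of -0.19 ± 0.16 (adjusted p = 0.395). Angpt1, with 157 counts over the 14 libraries, Angpt4, Nos3, and Apln were not tested.

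Of 8 endothelial activation genes Icam1 and Vcam1 were tested. Their UUO level alone met the filter, so their rise says nothing of the other 6. Icam1, a leukocyte adhesion molecule, went from a median of 16.1 CPM (7.45 to 37.6) to a median of 71.8 CPM (57.6 to 158), a change of 2.52 ± 0.20 (adjusted p = 3.00e-09), without overlap, and Vcam1 was described above; tubule cells also make both, so these rises are not assigned to a cell type. Klf4, with 93 counts over the 14 libraries, Sele, Selp, Klf2, Vwf, and Icam2 were not tested. Of the VEGF ligands, Vegfa (-0.50 ± 0.15, adjusted p = 0.014) and Vegfb (-0.65 ± 0.23, adjusted p = 0.0379) fell, and the semaphorin and VEGF coreceptor gene Nrp2 rose (1.04 ± 0.22). Among mural cell genes, Rgs5 of pericytes fell (-0.48 ± 0.16, adjusted p = 0.0312), a call lost in many settings, among them without the libraries holding both Xist and Y-linked counts, and Ren1, renin, had a change of -0.44 ± 0.23 (adjusted p = 0.156).

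Of 18 macrophage markers 9 were tested, and these rose, with a median of 2.29, while the other 9 were under the filter; the summed level of the 18 was 157.8 to 412.7 CPM in CL and 593.8 to 1505 CPM in UUO kidneys. Ctss, the lysosomal protease cathepsin S, rose from a median of 31.5 CPM (10.4 to 37.6) to a median of 141 CPM (76.0 to 185), a change of 2.44 ± 0.24 (adjusted p = 9.18e-08). C1qb, a complement component made by resident macrophages, rose from a median of 18.2 CPM (11.2 to 28.2) to a median of 87.6 CPM (36.0 to 122), a change of 2.04 ± 0.22, and Cd14, a coreceptor for bacterial lipopolysaccharide, from a median of 5.80 CPM (2.81 to 12.6) to a median of 36.9 CPM (22.0 to 72.9), a change of 2.62 ± 0.27. Lyz2, lysozyme, rose by 2.23 ± 0.24 with overlapping kidneys, and the rise of Csf1r, the receptor for macrophage colony-stimulating factor, was small (0.38 ± 0.14). The defining marker Adgre1 held 136, Cd68 81, and Ccr2 278 counts over the 14 libraries and fell under the filter. No marker of neutrophils (8 listed) or of T and NK cells (10) was tested. Summed over each list, neutrophil markers ran from 2.81 to 23.1 CPM in CL and from 2.99 to 28.3 CPM in UUO kidneys, and T and NK cell markers from 4.21 to 17.1 and from 20.0 to 45.7 CPM. Red blood cell markers summed to 237.1 to 2550 CPM in CL and 96.0 to 801.9 CPM in UUO kidneys, and urothelium markers held at most 45.5 and 61.0 CPM. How far these cells account for other changes was not tested.

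Inflammatory mediators rose alongside. Of 22 listed chemokine and cytokine genes 9 were tested. Cxcl1, Cxcl10, and Osmr reached the filter through their UUO level, so the count of rises leans on the filter. Of the 9 tested genes 8 rose and 1 fell (median 1.75), beside 14.0% of all genes higher and 16.5% lower. Besides Cxcl1 and Cxcl10, these included Cxcl16 (1.75 ± 0.21), Cx3cl1 (1.65 ± 0.21), and Il34, a ligand of CSF1R (1.53 ± 0.28), and Osmr, the oncostatin M receptor, rose from a median of 7.20 CPM (5.35 to 15.8) to a median of 30.0 CPM (20.0 to 64.8), a change of 2.27 ± 0.21. Cxcl12, a stromal chemokine, fell by 0.65 ± 0.23. Ccl2, with 93 counts over the 14 libraries, Il1b, Il6, and Tnf were too low to be tested. Of 12 tested complement genes 10 rose (median 1.56), beside 14.0% of all genes. Cfi, a complement regulator, went from a median of 11.2 CPM (4.19 to 27.7) to a median of 89.9 CPM (54.0 to 156), a change of 2.86 ± 0.22. C1ra, of the classical pathway, went from a median of 10.5 CPM (5.61 to 20.2) to a median of 45.1 CPM (32.0 to 55.2), a change of 1.76 ± 0.22. C4b (0.75 ± 0.42, adjusted p = 0.195) and the regulator Cd55 (-0.09 ± 0.26, adjusted p = 0.831) did not pass.

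Antigen presentation and interferon-stimulated genes formed a further block of rises, 17 of 19 tested (median 1.38), beside 14.0% of all genes. Cd74, the invariant chain of MHC class II, rose from a median of 91.0 CPM (50.8 to 168) to a median of 344 CPM (234 to 658), a change of 1.99 ± 0.18 (adjusted p = 1.77e-08). The class II genes H2-Ab1 (1.85 ± 0.17), H2-Eb1 (1.86 ± 0.17), and H2-Aa (1.72 ± 0.18) rose by like amounts, all without overlap, and class I genes such as H2-K1 (1.05 ± 0.15) and B2m (1.28 ± 0.15) less. Gbp2, an interferon-induced GTPase, rose by 2.61 ± 0.35, whereas Gbp3 (0.87 ± 0.33, adjusted p = 0.0519) and Ifit3 (0.34 ± 0.20, adjusted p = 0.206) did not pass.

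Transcription factors of injury and genes of proliferation rose as well. Of 21 immediate-early and injury factors 10 were tested, and these rose (median 1.38). The other 11 were too low to be tested, among them Fos, and Socs3 and Runx1 reached the filter through their UUO level, so the count of rises leans on the filter. Socs3, an inhibitor of cytokine signaling, went from a median of 1.66 CPM (0 to 17.8) to a median of 27.7 CPM (22.0 to 44.4), a change of 3.34 ± 0.44 (adjusted p = 3.50e-06), Klf6 from a median of 36.8 CPM (29.5 to 49.4) to a median of 194 CPM (102 to 249), a change of 2.18 ± 0.18, and Runx1 from a median of 2.81 CPM (0 to 8.39) to a median of 18.0 CPM (13.5 to 35.9), a change of 2.78 ± 0.41. Stat3, which transmits signals of the IL-6 family, rose by 1.09 ± 0.14. Of 20 tested cell cycle genes 17 rose and 1 fell (median 1.22), beside 14.0% of all genes higher and 16.5% lower. Mki67, the proliferation marker Ki-67, rose from a median of 14.0 CPM (10.5 to 19.9) to a median of 65.1 CPM (29.9 to 122), a change of 2.16 ± 0.22 (adjusted p = 1.04e-07), and Top2a, a topoisomerase of dividing cells, from a median of 14.7 CPM (11.2 to 18.2) to a median of 50.7 CPM (44.0 to 87.8), a change of 1.94 ± 0.19, both without overlap. Cyclin D1 (Ccnd1) fell by 0.46 ± 0.16. Of 9 tested p53 target and growth arrest genes 5 rose, beside 14.0% of all genes. Cdkn1a was foremost, then Gadd45a (1.17 ± 0.34), Btg2 (0.87 ± 0.22), Sesn2 (0.63 ± 0.23), and Mdm2 (0.62 ± 0.17), the last a call lost without the libraries holding both Xist and Y-linked counts.

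**Figure D3:**
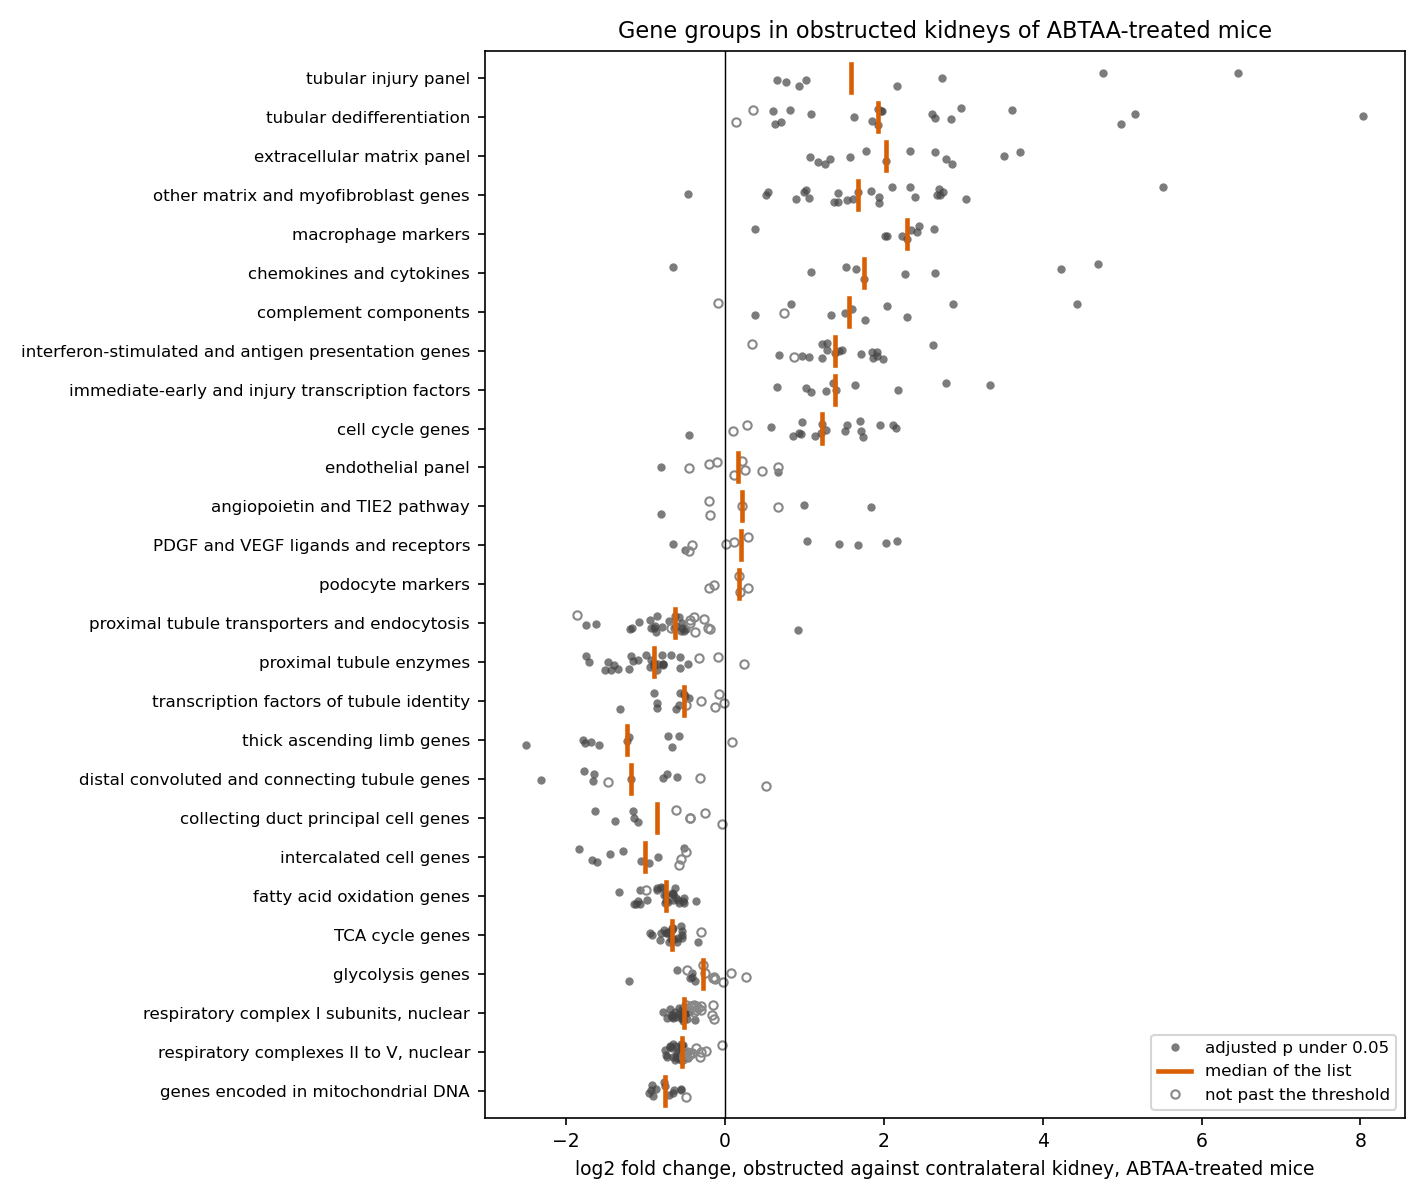
Log2 fold change of UUO against CL kidneys for each tested gene of the lists shown. Filled points passed an adjusted p of 0.05 (edgeR), open points did not, and bars mark list medians. Injury, matrix, and immune lists lie above 0 (medians up to 2.29), tubule and mitochondrial lists below it (down to -1.24), and endothelial and podocyte lists near it.

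Proximal tubule genes fell broadly but by modest amounts. Of 32 transporters and endocytic receptors 22 fell and 1 rose, with a median log2 fold change of -0.64, and of 29 tested enzymes 26 fell (median -0.89). Lrp2, the endocytic receptor megalin, went from a median of 2248 CPM (1848 to 2716) in CL to a median of 1036 CPM (922 to 1671) in UUO kidneys, a change of -0.88 ± 0.17 (adjusted p = 4.11e-04). Slc9a3, the sodium-hydrogen exchanger NHE3, fell from a median of 92.7 CPM (58.8 to 109) to a median of 32.3 CPM (18.5 to 61.4), a change of -1.20 ± 0.21, and the organic anion transporter gene Slc22a8 by 1.63 ± 0.33. Slc6a20b, an imino acid transporter, fell from a median of 265 CPM (243 to 380.2) to a median of 154 CPM (132 to 175), a change of -0.89 ± 0.12, with no overlap. Slc13a1, the sodium-sulfate cotransporter of the same cells, went the opposite way, from a median of 349 CPM (296 to 886) to a median of 853 CPM (578 to 1297), a change of 0.92 ± 0.16 (adjusted p = 1.31e-04). The glucose transporter gene Slc5a2 (-0.44 ± 0.17, adjusted p = 0.0587) and the androgen-dependent Kap (-0.69 ± 0.36, adjusted p = 0.157) did not pass. Among enzymes, Upb1, of pyrimidine breakdown (-1.16 ± 0.16), and Mep1b, a brush border protease (-1.51 ± 0.21), fell without overlap, and Pck1, of gluconeogenesis, fell by 1.21 ± 0.23. Gclc, of glutathione synthesis (0.24 ± 0.12), Gsta2 (-0.08 ± 0.18), and Ugt2b38 (-0.33 ± 0.50) did not pass.

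Transcription factors that hold tubule identity fell in 10 of 15 cases (median -0.52). Hnf4a, the main factor of proximal tubule identity, went from a median of 378 CPM (313 to 417) to a median of 259 CPM (209.5 to 313), a change of -0.57 ± 0.12 (adjusted p = 7.11e-04), and Ppargc1a, a coactivator of mitochondrial biogenesis, from a median of 107 CPM (79.1 to 133) to a median of 53.9 CPM (39.3 to 82.0), a change of -0.86 ± 0.17. The highest UUO values lay just above the lowest CL values in both genes, and the call of Hnf4a was lost in the plain libraries alone and that of Ppargc1a in the split-name libraries alone, although not with the replicate block (adjusted p = 0.0139). Esrrb (-1.32 ± 0.28) and Emx1 (-0.89 ± 0.21) fell too. Gata3 (-0.07 ± 0.25, adjusted p = 0.863) did not pass.

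Of 11 thick ascending limb genes 10 fell (median -1.24), and of 11 tested distal convoluted and connecting tubule genes 8 fell (median -1.19). Kcnj1, the potassium channel ROMK, fell from a median of 478 CPM (351 to 1114) to a median of 141 CPM (83.3 to 272), a change of -1.59 ± 0.26 (adjusted p = 6.87e-05), and Ptger3, a prostaglandin E2 receptor, from a median of 59.6 CPM (39.3 to 90.3) to a median of 17.9 CPM (5.78 to 44.0), a change of -1.77 ± 0.23. Umod fell less (-0.67 ± 0.23, adjusted p = 0.0337), and Cldn16, a tight junction protein, had a change of 0.08 ± 0.25 (adjusted p = 0.846). Slc12a3, the thiazide-sensitive cotransporter NCC, fell from a median of 574 CPM (436 to 882) to a median of 166 CPM (124 to 396), a change of -1.65 ± 0.24 (adjusted p = 1.44e-05), with no overlap. Calb1, the calcium-binding protein calbindin of the distal convoluted and connecting tubule, had a median of 585 CPM (537 to 1163) in CL and a median of 72.5 CPM (25.4 to 548) in UUO kidneys, a change of -2.31 ± 0.47. UUO replicates 1 and 2 again lay highest, at 547.8 and 410.1 CPM, and the other 5 held at most 147.5 CPM. Trpv5, a calcium channel, had a change of 0.52 ± 0.27 (adjusted p = 0.16).

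Collecting duct genes fell in 5 of 10 tested principal cell genes (median -0.86) and 9 of 12 intercalated cell genes (median -1.01). Aqp4 fell from a median of 110.3 CPM (71.4 to 142) to a median of 36.9 CPM (9.52 to 59.9), a change of -1.64 ± 0.22 (adjusted p = 7.38e-06), and Aqp3 from a median of 115 CPM (68.8 to 208) to a median of 35.9 CPM (17.3 to 104), a change of -1.38 ± 0.24; both are water channels of the basolateral membrane. Aqp2, the vasopressin-regulated apical channel (-1.10 ± 0.26), and Avpr2, the vasopressin receptor (-1.15 ± 0.19), fell too. The subunits of the epithelial sodium channel gave no call, with -0.62 ± 0.28 for Scnn1a, -0.04 ± 0.23 for Scnn1b, and -0.25 ± 0.16 for Scnn1g. In intercalated cells, the ammonia transporter genes Rhbg (-1.85 ± 0.27) and Rhcg (-1.44 ± 0.27) and the proton pump subunit genes Atp6v1c2 (-1.61 ± 0.28) and Atp6v1b1 (-1.07 ± 0.21) fell. Of 5 tested podocyte markers edgeR called 0, with 0 at an unadjusted p under 0.05 and 0 by DESeq2, beside 30.5% of all genes called, a share at which so few genes give few calls (median 0.18), with Synpo, synaptopodin, at 0.29 ± 0.17.

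Most listed genes of fatty acid oxidation, the tricarboxylic acid cycle, and the respiratory complexes fell in whole-kidney RNA. Of 29 fatty acid oxidation genes 28 fell (median -0.74), and of 23 tricarboxylic acid cycle genes 22 fell (median -0.67). Ehhadh, of peroxisomal oxidation, went from a median of 617 CPM (446 to 1096) to a median of 349.9 CPM (209.6 to 457), a change of -1.10 ± 0.16 (adjusted p = 1.33e-05), Hadh, of mitochondrial oxidation, from a median of 350.2 CPM (325 to 460.2) to a median of 213 CPM (150.1 to 266), a change of -0.80 ± 0.14, and Cpt1a, which admits fatty acids to mitochondria, fell by 0.67 ± 0.13. Pcx, which feeds pyruvate into the cycle, fell from a median of 354 CPM (277 to 545) to a median of 203 CPM (157 to 239.6), a change of -0.95 ± 0.14, and the dehydrogenase subunits Dld (-0.81 ± 0.13) and Pdha1 (-0.75 ± 0.13) fell, each without overlap. Nuclear genes of respiratory complex I fell in 24 of 37 cases (median -0.51) and those of complexes II to V in 27 of 38 (median -0.55), and none of them rose. Complex I had a median of -0.31 in plain and -0.77 in split-name libraries with 2 and 21 genes called, and complexes II to V -0.34 and -0.85 with 0 and 29 called, beside 10.7% and 24.1% of all genes. No gene of these complexes differed between the forms after adjustment in edgeR, and DESeq2 called 1, Atp5a1. Ndufs1, a core subunit of complex I, went from a median of 452 CPM (350.2 to 615) to a median of 270.3 CPM (202 to 366), a change of -0.79 ± 0.15, and Sdha, of complex II, from a median of 1158 CPM (1051 to 1855) to a median of 790.3 CPM (644 to 996), a change of -0.73 ± 0.15.

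Of 13 genes encoded in mitochondrial DNA 12 fell (median -0.75), among them mt-Nd2 (-0.96 ± 0.21) and mt-Nd6 (-0.92 ± 0.16). Mitochondrial genes took 3.91% ± 0.836 (SD, n = 7) of counts in CL and 2.36% ± 0.547 (SD, n = 7) in UUO kidneys. The difference of -1.55 percentage points had an exact 2-sided permutation p of 0.00291 over 3432 arrangements and of 0.00143 within the forms, the smallest that 1400 arrangements allow. Of 15 glycolysis genes 6 fell (median -0.27). The muscle-type phosphofructokinase gene Pfkm fell from a median of 66.4 CPM (54.8 to 123) to a median of 34.7 CPM (17.1 to 43.0), a change of -1.21 ± 0.19, whereas Gapdh (-0.15 ± 0.16) and Ldha (-0.02 ± 0.15) had adjusted p of 0.546 and 0.939.

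The split between rises and falls depended on scaling. Without TMM normalization 1454 genes were higher and 1070 lower (57.6% of calls higher, against 46.0% with it), and the median of all genes moved to 0.102. Of the metabolic lists, 26 fatty acid oxidation, 21 tricarboxylic acid cycle, 22 complex I, 28 complex II to V, and 12 mitochondrial DNA genes fell without it, against 28, 22, 24, 27, and 12 with it. Of the glycolysis genes 3 fell and 1 rose without it, against 6 and 0 with it. No gene called here changed sign without it.

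The response of ABTAA-treated mice was then set against that of IgG-treated mice in a fit of the 30 libraries, in which no library is shared between the responses. No gene of 9579 had a response that differed between the arms at an adjusted p under 0.05 (edgeR; 0%), 522 (5.45%) had an unadjusted p under 0.05, and DESeq2 also called 0. The smallest adjusted p was 0.157. The median size of the difference was 0.194 and its median SE 0.275 on the log2 scale, so differences under about the size of 1 were mostly not detectable at this depth: on simulated data 44.8% of differences of log2 1 were recovered and 98.9% of those of log2 2. In the same fit ABTAA-treated mice had 1486 genes higher (15.5%) and 1617 lower (16.9%), and IgG-treated mice, with 16 libraries against 14, had 1789 higher (18.7%) and 2065 lower (21.6%).

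The leading genes of the injury, matrix, and endothelial lists are given side by side, each with its log2 fold change and SE. Havcr1 rose by 6.45 ± 0.26 with ABTAA and 7.03 ± 0.26 with IgG, a difference of -0.58 ± 0.38 (adjusted p = 0.876, edgeR). Col1a1 rose by 3.73 ± 0.25 and 3.63 ± 0.23, Pdgfb by 2.15 ± 0.24 and 2.06 ± 0.24, Vcam1 by 4.98 ± 0.23 and 5.11 ± 0.22, and Lcn2 by 4.72 ± 0.24 and 5.08 ± 0.23. None of these 4 differences reached an unadjusted p of 0.05. Angpt2 changed by -0.82 ± 0.29 and -0.59 ± 0.31, a difference of -0.23 ± 0.43, and Tek by 0.19 ± 0.19 and -0.12 ± 0.19, a difference of 0.31 ± 0.27. C3 rose by 4.44 ± 0.30 with ABTAA and 5.42 ± 0.30 with IgG (adjusted p = 0.865).

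By list, medians of the tubule and mitochondrial lists were nearer 0 with ABTAA than with IgG, and gaps among the rising lists went both ways. Proximal tubule enzymes had -0.90 with ABTAA and -1.51 with IgG, fatty acid oxidation genes -0.76 and -1.05, complex I genes -0.53 and -0.86, and thick ascending limb genes -1.23 and -1.46. The matrix panel had 2.01 and 1.90, macrophage markers 2.32 and 1.91, and the injury panel 1.58 and 1.72. Dedifferentiation genes had 1.93 and 2.21, chemokines and cytokines 1.72 and 2.22, and injury transcription factors 1.33 and 1.73. The short smooth muscle and renin list had -0.50 and -0.45. An unadjusted p under 0.05 was reached by 10 of 29 proximal tubule enzymes, 8 of 32 proximal transporters, 9 of 38 genes of complexes II to V, 6 of 37 of complex I, 5 of 29 fatty acid oxidation genes, 4 of 21 dedifferentiation genes, and 0 of 11 thick ascending limb genes, beside 5.45% of all genes, and no gene of these lists passed after adjustment. Genes of a list move together in a kidney, so these counts are not independent and no test was made of a list.

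Medians of the tubule and mitochondrial lists lay further apart in the plain libraries. In a fit with a response for each arm in each form, added after the values were seen, proximal tubule enzymes had a median of -0.57 with ABTAA and -1.34 with IgG in plain libraries, and of -1.48 and -1.59 in split-name libraries. Complex I genes had -0.33 and -0.91 in plain and -0.79 and -0.85 in split-name libraries, complexes II to V -0.35 and -0.92 and then -0.87 and -0.86, and thick ascending limb genes -0.80 and -1.49 and then -2.02 and -1.85. An unadjusted p under 0.05 for the difference was reached by 22 of 37 complex I genes and 11 of 29 proximal tubule enzymes in plain libraries (6.9% of all genes) and by 0 of either list in split-name libraries (2.75% of all genes), with 0 genes called by edgeR in either form. Whether the gaps themselves differ between the forms was not tested. Of the 8 plain ABTAA libraries 5 hold both Xist and Y-linked counts, and the difference between arms was not refitted without them. The 3 tested sex-linked genes had medians of 0.30 with ABTAA and 1.60 with IgG in plain libraries, and of -0.21 and 0.48 in split-name libraries. Whether the sex of the mice bears on these gaps was not tested. Among plain UUO kidneys with ABTAA, replicates 1 and 2, which kept the highest Egf and Calb1, lay nearest the CL kidneys on the first principal component, at 4.63 and 10.6.

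G6pc changed by -1.73 ± 0.26 with ABTAA and -2.59 ± 0.26 with IgG (adjusted p = 0.865), and Slc34a3, a phosphate transporter, changed by -0.47 ± 0.29 and -1.60 ± 0.29 (adjusted p = 0.865).

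The 5 genes with the lowest p for the difference were BC017158, Prss8, Tapt1, Mcee, and Lifr. BC017158 changed by -0.29 ± 0.15 with ABTAA and -1.33 ± 0.15 with IgG, a difference of 1.03 ± 0.21 (adjusted p = 0.157). It lies across Slc5a2, the glucose transporter SGLT2, on the opposite strand, whose own responses were -0.46 ± 0.17 and -1.31 ± 0.17 (adjusted p = 0.865), and reads of the 2 genes cannot be told apart without strand. Prss8, a protease that activates the epithelial sodium channel, changed by -0.38 ± 0.12 and -1.08 ± 0.11. Mcee, of propionate metabolism, changed by -0.53 ± 0.13 and -1.24 ± 0.13, Tapt1 by 0.36 ± 0.19 and -0.78 ± 0.21, and Lifr, the receptor of leukemia inhibitory factor, by -0.09 ± 0.12 and 0.51 ± 0.11, with adjusted p from 0.505 (Prss8) to 0.857 (Lifr).

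**Figure D4:**
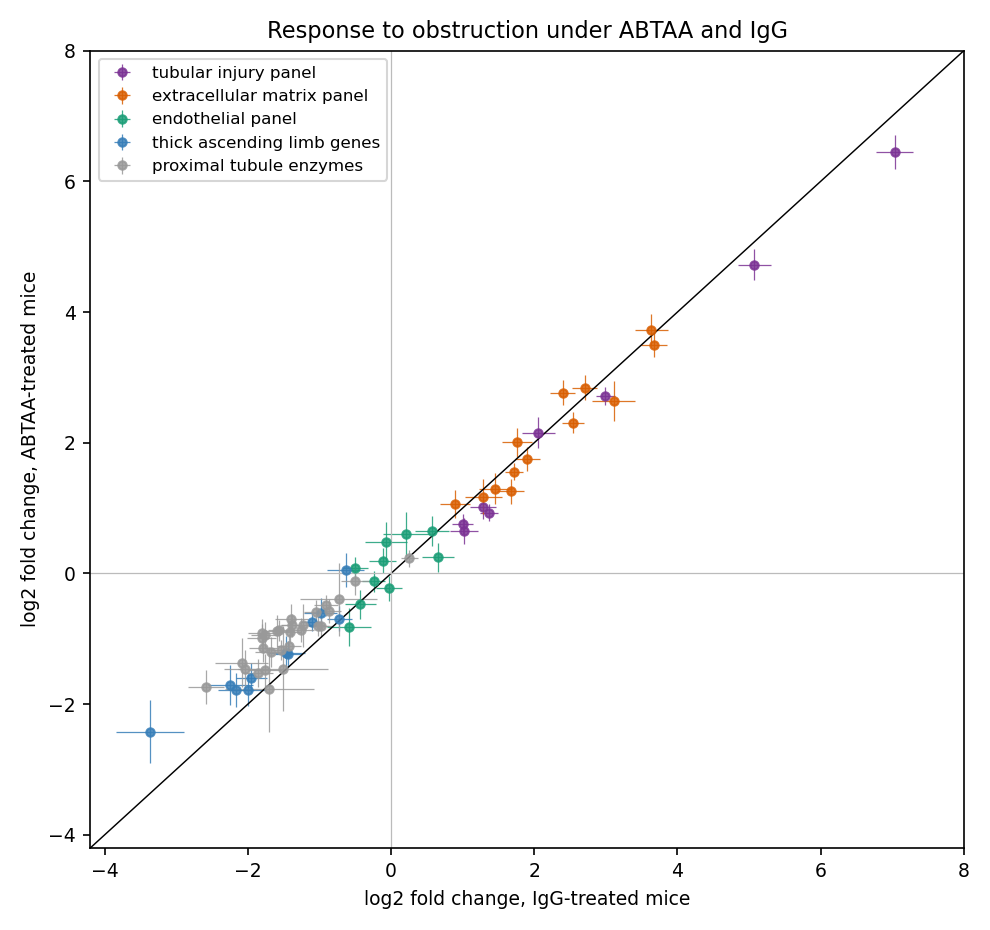
Log2 fold change of UUO against CL kidneys in IgG-treated (x axis) and ABTAA-treated mice (y axis), from 1 fit of 30 libraries, for the genes of 5 lists; bars are standard errors and the line marks equal responses. Matrix and injury genes lie along the line, and proximal tubule enzymes lie mostly above it (medians -0.90 with ABTAA and -1.51 with IgG).

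The 2 forms of library name gave mostly the same directions. Of the genes called, 1215 of 1216 rises and all 1427 falls had the same sign in both forms, which share the fit that called them. The median rise was 0.72 in plain and 0.92 in split-name libraries, and the median fall -0.54 and -0.90. One gene, Id3, a BMP-responsive inhibitor of differentiation, differed between the forms (0.0115% of genes tested; 707 genes, 8.16%, at an unadjusted p under 0.05). It changed by 0.44 in plain libraries and by 2.30 in split-name libraries (difference 1.86 ± 0.29 SE, adjusted p = 0.0143, edgeR). Its UUO kidneys had a median of 182 CPM (129 to 289), and its CL values ran from 43.5 to 57.4 CPM in split-name and from 91.1 to 137.5 CPM in plain libraries. Egf changed by -1.31 in plain and by -4.32 in split-name libraries, Calb1 by -1.19 and -4.12, and Slc22a7, an organic anion transporter, by -1.42 and -4.36. Gpc3, a glypican, changed by 0.84 and 3.01. The differences of these 4 genes did not pass in edgeR (adjusted p from 0.136 to 0.239), but all 4 passed with no filter and without UUO replicate 3, Egf and Calb1 in DESeq2, Egf, Calb1, and Slc22a7 without the libraries holding both Xist and Y-linked counts, Slc22a7 and Gpc3 without CL replicate 5, and Slc22a7 without UUO replicate 4. At this depth simulated differences of log2 1 between forms were recovered in 9.47% of cases and those of log2 2 in 82.7%, and the call of Id3 was lost without CL replicate 1, 3, or 6, without UUO replicate 6 or 7, and without the libraries holding both Xist and Y-linked counts (adjusted p = 0.0627), while DESeq2 gave it no adjusted p. For UUO against CL kidneys, 39 of the 146 named genes that were called lost the call in the plain libraries alone, among them, of those with a change printed here, Piezo1, Ets2, Cnn2, Cdh5, Angpt2, Id3, Btg2, Mdm2, Gadd45a, Hnf4a, Esrrb, Calb1, Pdha1, Ndufs1, Sdha, mt-Nd2, Rgs5, Hsph1, Gpc3, Prss8, Mcee, Slco1a1, Azgp1, and Serpina1d. The split-name libraries alone gave 1017 genes higher and 1188 lower, and 1301 and 1541 with the replicate block, under which Bmp7 and Mdm2 also kept calls that were lost there without it, while Esm1, Rgs5, and Prss8 did not pass. What the forms stand for was not tested.

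**Figure D5:**
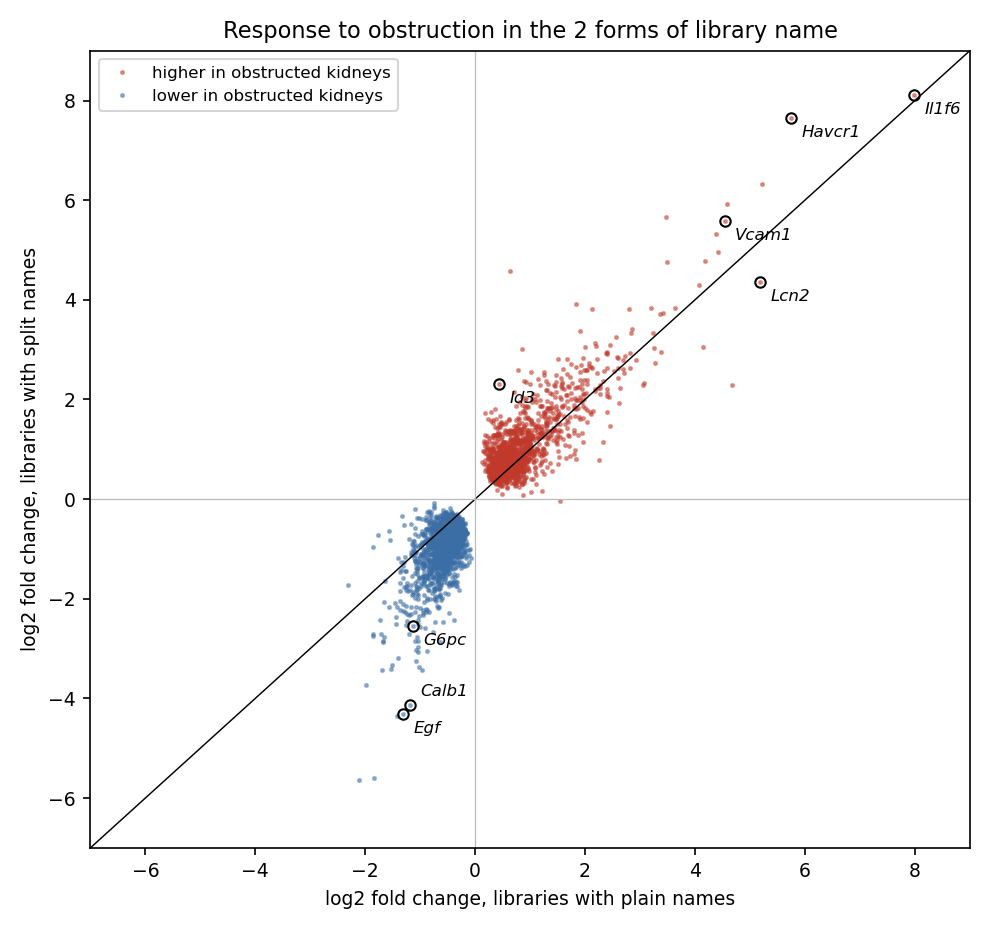
Log2 fold change of UUO against CL kidneys in libraries with plain names (x axis) and with split names (y axis) for the 2643 genes called in the joint fit, which used both forms; the line marks equal responses. Egf and Calb1 lie far below the line and Id3 above it.

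The widest spread among UUO kidneys, within the forms, belonged to Slco1a1, Azgp1, and Serpina1d. Slco1a1, an organic anion transporter of the proximal tubule that androgens induce, had a median of 119 CPM (1.98 to 230.1) in CL and a median of 36.2 CPM (1.23 to 78.3) in UUO kidneys, a change of -1.75 ± 0.65 (adjusted p = 0.0427). Azgp1, a secreted glycoprotein, had a median of 50.3 CPM (1.98 to 102) in CL and a median of 17.0 CPM (0 to 27.8), a change of -1.86 ± 0.58 (adjusted p = 0.0175). Serpina1d, a member of a family of near-identical protease inhibitors whose reads can be split between copies, had a median of 60.8 CPM (6.69 to 460.2) in CL and a median of 34.6 CPM (0 to 92.5), a change of -1.62 ± 0.41. All 3 overlapped between the kidneys, and their calls were unstable. That of Slco1a1 was lost in DESeq2, in each form alone, and without any of 10 single libraries, that of Azgp1 in DESeq2 and in each form alone (both passed in split-name libraries with the replicate block), and that of Serpina1d without the form term and in plain libraries alone. CL replicates 2 and 5 and UUO replicates 1, 2, and 5 held Xist and at most 1 Y-linked count. In these libraries Slco1a1 held 1.23 to 2.99 CPM and Azgp1 0 to 3.31 CPM, and in all others 36.2 to 230.1 and 17.0 to 102 CPM. Values of Serpina1d overlapped between these 2 sets of libraries. Both groups held libraries with and without Xist, from 0 to 632.9 CPM in CL and from 0 to 684.3 CPM in UUO kidneys (-0.06 ± 0.75, adjusted p = 0.964, edgeR), and with Xist as a further covariate the 3 calls held.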

How the data were processed

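Kidney RNA was made into Smart-seq3 libraries with unique molecular identifiers, each sample in 4 wells. Per the submitters' processing notes the authors mapped merged reads with STAR 2.7.3a to mm10, removed duplicates with UMI-tools 1.1.4, and deposited whole-number counts per gene from featureCounts (Subread 1.4.6-p5). Which annotation release and strand setting were used is not given in the sources at hand. Groups came from the labels, columns were matched by sample title, and replicate numbers name libraries only. No p-value covers more than the spread between these kidneys.

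The quasi-likelihood test of edgeR 4.0.16 (R 4.3.3, with limma 3.58.1) was run on the counts: TMM, filterByExpr by group, glmQLFit and glmQLFTest with form of library name as a term, and Benjamini-Hochberg adjustment over all genes tested, with 0.05 as the threshold. The exact test of edgeR, which the study used, takes no covariate; it and DESeq2 1.42.0 were run as alternatives. The SE is the log2 fold change divided by the square root of F. CPM values are scaled by TMM, and no pseudocount enters them outside the plot (1 CPM) and the principal components. Differences between arms and between forms were tested as interaction terms. Shares of counts were compared by exact permutation in Python 3.11.15 (scipy 1.17.1, numpy 2.4.6, pandas 2.3.3; plots in matplotlib 3.10.9). Each fit was tested on simulated data: 90.3% of genes changed by log2 1 and 100% of those changed by log2 2 were recovered for UUO against CL (8368 genes). Genes were placed with GENCODE vM21 and promoters taken from RefSeq, where 18 of the 24 largest rises and falls have one.

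Genes were named by rule: the 12 largest rises and 12 largest falls among genes at an adjusted p under 0.05 with separate groups and a mean count of at least 20 in the higher group, the study's panels and the angiopoietin list, the members of each other list with the lowest adjusted p and those short of the threshold, 5 genes for each interaction, cell type markers, and the 3 genes of widest spread; members of a list given beside these were chosen after their values were seen. Members, the 42 lists, and tests were chosen with earlier results of these data known. The split names carry numbers, and same-numbered CL and UUO libraries deviated together from their group means (r = 0.42, 0.215, and 0.176, against a mean of -0.132 over 6 other pairs), so these numbers were taken as pairs in an alternative with a replicate block. Both libraries numbered 9 held Xist and no Y-linked count, whereas those numbered 11 and 12 held Y-linked counts. Other pairs with a library numbered 9 had r from -0.28 to -0.222, and those of 11 with 12 had 0.113 and 0.11. These values do not show that the numbers name mice. No 2 libraries of a group agreed within sampling noise (lowest chi-square per degree of freedom 1.54 over 42 pairs). Other alternatives were no form term, no TMM, RLE factors, 2 other filters, 4 groups in 1 fit, each form alone, thinning, each library left out, a fold change minimum, and, chosen after seeing the data, leaving out libraries with both Xist and Y-linked counts, Xist as a covariate, and responses of both arms within each form. Results for a few genes are not reported here.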

Additional observations from a re-analysis of the deposited data

Results flagged for a closer look

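In 60 genes and 3 measures of the libraries, each group of 7 kidneys was checked for a kidney far from the others, and 9 of 126 groups held one by Dixon's criterion, where chance gives about 1 in 20. In 6 of the 9 this was CL replicate 5, which held the highest CL value of Serpina10 (15.8 CPM), C3 (176.0 CPM), Cyp2d12 (172.1 CPM), Slc16a7 (530.1 CPM), Slc12a1 (1962 CPM), and Tnc (21.8 CPM). Without that library these 6 genes kept their calls. CL replicate 4 held the highest CL value of Col1a1 (25.2 CPM), UUO replicate 6 the highest UUO value of Vcam1 (791.0 CPM), and UUO replicate 2, the shallowest library, had no count of Tie1 (0 CPM). The response of Id3 to obstruction was larger in split-name than in plain libraries by 1.86 on the log2 scale, in a test of the difference itself.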

How the results depend on the processing

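Over the planned and added alternatives, no gene was called in opposite directions and the 158 genes with a fit among those named gave 4524 values, of which 4349 kept direction and side of the threshold, 162 lost a call (43 genes), 7 gained one, and 0 reversed a call; 6 values of 3 genes that were not called changed sign. Against 1216 higher and 1427 lower, plain libraries alone gave 548 and 383, thinning to the shallowest library 776 and 944 (of 6260 genes, fewer being tested), a log2 fold change of at least 1 gave 399 and 276, and no filter gave 1855 higher among 22722 genes. Leaving out 1 library gave 1048 to 1313 higher and 1210 to 1479 lower. With the replicate block, which pairs the numbered libraries, the counts were 1248 and 1482, over all 14 libraries, and the block changed no call of a named gene. For the difference from IgG, no filter gave 27 genes and leaving out 1 library 0 to 1 (BC017158, without UUO replicate 3); with the block 0 genes differed. For the difference between forms, DESeq2, whose own filter left most genes with no adjusted p, gave 27 genes, no filter 70, leaving out the libraries with both Xist and Y-linked counts 17, and leaving out 1 library 0 to 49 (49 without UUO replicate 3, 15 without CL replicate 5); with the block 1 gene differed. The cause was not tested. The difference in mitochondrial share ran from -1.73 to -1.36 percentage points and that in the Gm42418 share, 0.645 in full, from -0.143 to 1.67 without 1 library. Depth limits genes of few counts: Angpt1, Mmp2, Klf4, and most cytokines, T cell, and neutrophil markers could not be tested.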

Other observations

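Of 20 tested antioxidant and metal-binding genes 3 rose and 5 fell, beside 14.0% of all genes higher and 16.5% lower, with a median log2 fold change of -0.06. Hmox1, heme oxygenase 1, rose from a median of 13.8 CPM (7.45 to 43.4) in CL to a median of 48.1 CPM (16.0 to 109) in UUO kidneys, a change of 1.47 ± 0.27 (adjusted p = 2.49e-04), and the metallothionein gene Mt2 rose by 1.16 ± 0.19 while Mt1 had a change of 0.14 ± 0.16 (adjusted p = 0.546). Sod2, the mitochondrial superoxide dismutase, fell from a median of 371 CPM (223 to 412) to a median of 215 CPM (108 to 283), a change of -0.84 ± 0.12, and Cat, catalase of peroxisomes, fell by 0.75 ± 0.13. Glutathione peroxidase genes Gpx1 (-0.08 ± 0.19), Gpx3 (-0.38 ± 0.23), and Gpx4 (-0.11 ± 0.21) did not pass. Of 3 tested heat shock genes that respond to tissue handling, Hsph1 fell (-0.47 ± 0.16, adjusted p = 0.0279; not without the libraries holding both Xist and Y-linked counts) and the other 2 did not pass. Of the distal tubule genes Pvalb, parvalbumin, held 92.0 and 101.8 CPM in UUO replicates 1 and 2, 6.91 CPM in replicate 4, and no count in the other 4 UUO kidneys, against a median of 73.4 CPM (16.8 to 105) in CL kidneys (adjusted p = 0.0547).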
